A study of Rattus norvegicus with 59 samples.

Results

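The genes described here make, retrieve and sense the inhibitory transmitter gamma-aminobutyric acid (GABA): Gad1, Gad2, Slc6a11, Gabbr1 and Gabbr2. They are 5 of the 4736 genes that the array annotation names by a single symbol, and every probe set with one of these symbols was taken. That gave 10 of the 8799 probe sets on the array: 1 each for Gad1, Gad2 and Slc6a11, 4 for Gabbr1 and 3 for Gabbr2. All 10 passed the filter on dim probe sets and were among the 5244 tested.

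The study set an inbred alcohol-preferring rat line (iP, strain iP5C) against an inbred non-preferring line (iNP, strain iNP1). Total RNA of 5 brain regions of 12 adult male rats, 6 of each line, was hybridised to Affymetrix rat arrays, 1 region of 1 rat per array. The regions were nucleus accumbens, amygdala, hippocampus, striatum and the frontal part of the cortex, and 59 arrays were analysed, with 5 iP and 6 iNP rats in cortex and 6 and 6 elsewhere. All rats of both lines were housed in pairs with free food and water and were handled daily before decapitation, and the labels name no other treatment. Each line is 1 inbred strain, so alleles fixed by selection and alleles fixed by chance cannot be told apart as sources of a line difference.

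GABA is made from glutamate by the glutamate decarboxylases. Gad1 encodes the form found throughout the neuron, GAD67, and Gad2 the form concentrated at nerve terminals, GAD65. Released GABA is taken up by transporters of the Slc6 family, of which GAT-3, the Slc6a11 product, is mainly astrocytic. The GABA-B receptor is a G protein-coupled receptor that works as a pair of unlike subunits: the Gabbr1 product binds GABA and the Gabbr2 product carries the receptor to the cell surface and couples it to Gi/o proteins, which open Kir3 potassium channels, close presynaptic calcium channels and inhibit adenylyl cyclase. The medium spiny projection neurons of the striatum and nucleus accumbens are themselves GABAergic.

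These genes differed between regions, and none was called between the lines. The nucleus accumbens had the highest mean signal of Gad1, Gad2 and Slc6a11 and the lowest of all 3 Gabbr2 probe sets, whereas none of the 4 Gabbr1 probe sets was called in any region. Of 10 probe sets, 5 passed the test in accumbens against the mean of the other 4 regions (limma, Benjamini-Hochberg adjusted p under 0.05; 20.9% of all probe sets tested did so): 3 higher (12.3% of all) and 2 lower (8.58%). The corresponding counts were 2 of 10 in cortex (17% of all), 0 in striatum (13.9%), 1 in hippocampus (23.3%) and 3 in amygdala (26.1%). In striatum, 3 of the 10 had an unadjusted p under 0.05. Together 11 of 50 tests were called, against 20.2% over all probe sets, so the share of calls was near the background.

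**Figure D1:**
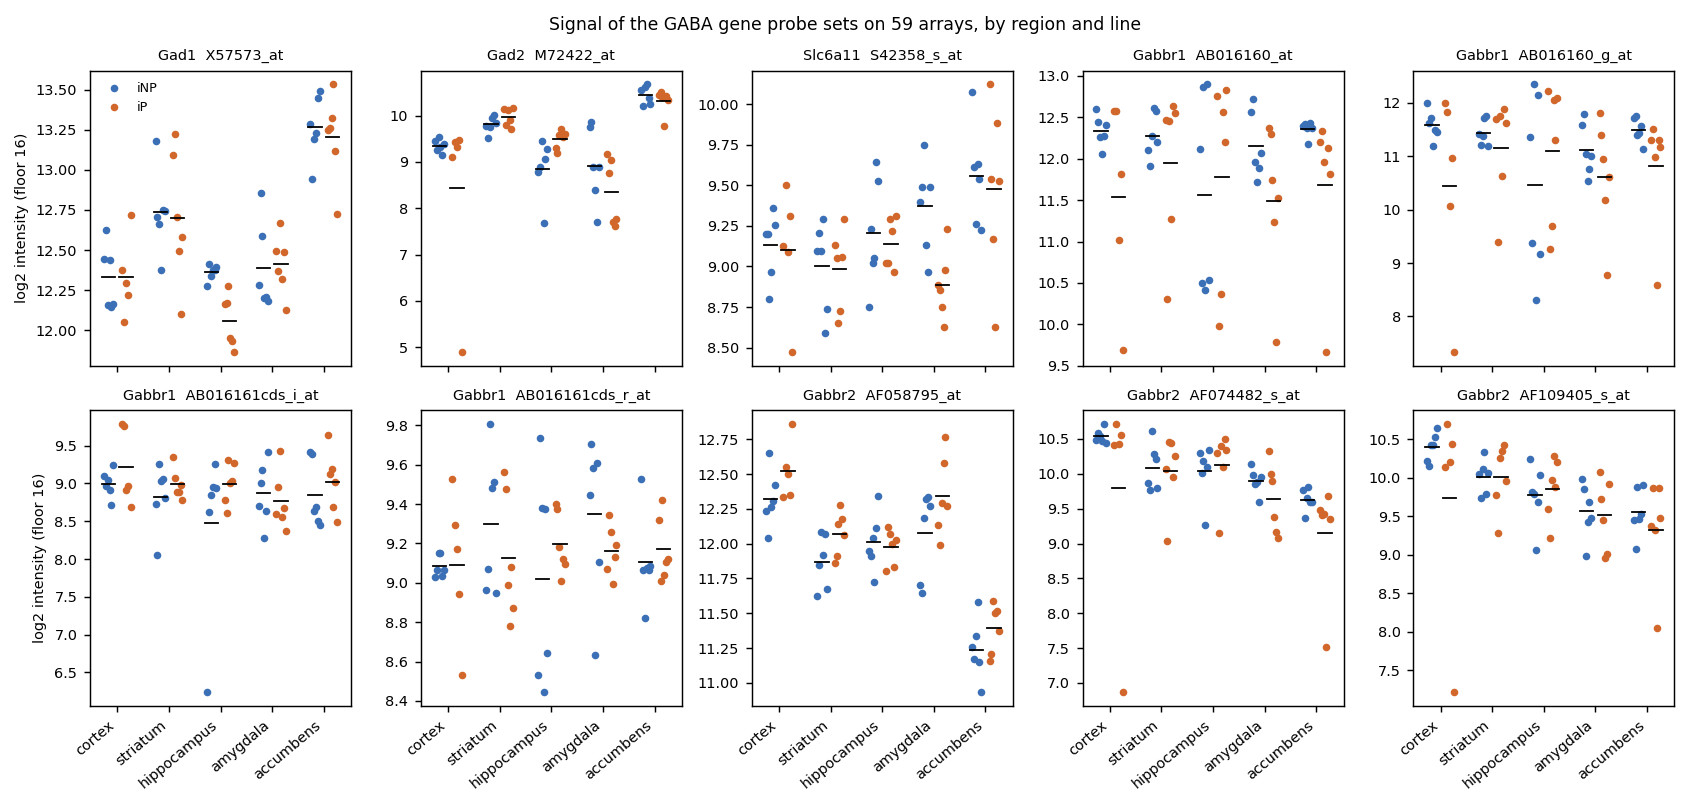
Signal of the 10 probe sets on each of the 59 arrays (log2 intensity, floor 16), by region and line, with 5 or 6 arrays per group; black bars are group means and each panel has its own vertical scale. Gad1, Gad2 and Slc6a11 have their highest region mean in accumbens and Gabbr2 AF058795_at its lowest, with every accumbens array at or below 11.59; Gabbr1 AB016160_at lies between 9.66 and 10.54 on 5 of 12 hippocampus arrays and on 1 array of each other region.

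Arrays were of uneven quality, which bears on several of these probe sets. The log2 ratio of the 3′ to the 5′ hexokinase probe set, a measure of transcript degradation or incomplete labelling, had a median of 0.864 and reached 3.91 in accumbens of iP animal 4 and 2.85 in cortex of iP animal 5. The latter array also had a Gapdh 3′ to 5′ log2 ratio of 6.14, where the others did not pass 0.440. By their overall profile, 5 of 59 arrays were nearest a region other than their label: those 2, both nearest amygdala, amygdala of iP animal 1, nearest cortex, and amygdala of iNP animals 7 and 8, both nearest accumbens. Of the 13 markers of medium spiny neurons that were tested, 12 rose in striatum, where 6.27% of all probe sets did. All 13 rose in accumbens, where 12.3% of all did, each relative to the other regions. These markers do not tell striatum from accumbens, and they do not identify cortex, hippocampus or amygdala. In bulk tissue, fewer cells of a type and less RNA per cell cannot be told apart.

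Gad1 and Gad2 are taken first, as the enzymes of synthesis. The 300 bases around the annotated start of each gene (250 before, 50 after; RefSeq, build GRCr8) are shown because both genes were highest in accumbens, with matches to TATAAA or to GGGCGG on either strand in capitals. Gad1 lies at chr3:75777202-75777501 (plus strand) and Gad2 at chr17:89671468-89671767 (plus strand).
Gad1: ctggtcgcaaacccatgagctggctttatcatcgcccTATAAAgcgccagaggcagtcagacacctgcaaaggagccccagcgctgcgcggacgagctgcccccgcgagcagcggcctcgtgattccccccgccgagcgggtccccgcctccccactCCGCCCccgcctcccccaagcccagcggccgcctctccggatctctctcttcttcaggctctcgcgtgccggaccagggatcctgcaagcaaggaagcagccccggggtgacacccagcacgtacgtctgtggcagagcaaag
Gad2: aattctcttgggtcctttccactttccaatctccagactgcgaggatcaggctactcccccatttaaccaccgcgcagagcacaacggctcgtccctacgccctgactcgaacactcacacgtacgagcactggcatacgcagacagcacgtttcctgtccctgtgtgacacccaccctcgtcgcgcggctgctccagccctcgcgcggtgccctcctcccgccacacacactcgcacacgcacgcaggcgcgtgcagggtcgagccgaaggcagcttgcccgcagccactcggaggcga
The Gad1 window held 1 TATAAA and 1 GGGCGG match and the Gad2 window none of either. Over 33469 windows of the same length, 14.2% held TATAAA and 33.1% GGGCGG. The CG dinucleotide occurred 26 times in the Gad1 window and 29 times in that of Gad2, against a median of 7.

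Gad1 signal (X57573_at) lay between 12.73 and 13.53 in the 12 accumbens arrays, with a median of 13.26 on the log2 scale, an intensity of 9780. Striatum followed with 12.10 to 13.22 (median 12.70) and amygdala with 12.13 to 12.86 (median 12.35). Cortex ran from 12.05 to 12.72 (median 12.30, 11 arrays) and hippocampus from 11.86 to 12.41 (median 12.28). Accumbens was thus highest and overlapped with striatum and with the brightest amygdala array, while amygdala, cortex and hippocampus overlapped widely. Accumbens exceeded the mean of the other regions by 0.83 ± 0.08 (log2, SE; 1.77-fold; limma adjusted p = 2.41e-12). Gad1 was lower in hippocampus (-0.45 ± 0.08, adjusted p = 4.36e-06) and in cortex (-0.34 ± 0.08, adjusted p = 0.00114). The smaller fall in amygdala (-0.22 ± 0.08, adjusted p = 0.0283) was lost when arrays were set to the same median (-0.17, adjusted p = 0.163) and without animals 7, 10, 11 or 12 in turn (-0.20 to -0.19, adjusted p 0.0620 to 0.0784). Its adjusted p ran from 0.00294 to 0.163 over 22 alternatives. Between neighbours in the order of levels, accumbens differed from striatum (0.52 ± 0.10, adjusted p = 5.21e-05) and striatum from amygdala (0.32 ± 0.10, adjusted p = 0.0100), and the lower neighbours did not differ beyond their spread. Of 10 pairs of regions, 7 were called for Gad1. Over all members 27 of 100 pair tests were called, against 19.9% of all probe sets.

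Gad2 signal (M72422_at) followed the same order at the top. The 12 accumbens arrays lay between 9.78 and 10.68 (median 10.41, intensity 1358) and the striatum arrays between 9.53 and 10.16 (median 9.88). Hippocampus ranged from 7.68 to 9.72 (median 9.29), cortex from 4.89 to 9.55 (median 9.32) and amygdala from 7.61 to 9.86 (median 8.83). Every accumbens array was above every cortex and hippocampus array, and 1 cortex array, that of iP animal 5, was far below all others. Accumbens exceeded the other regions by 1.23 ± 0.23 (2.34-fold, limma adjusted p = 3.54e-05), the largest difference of any member in any region. Gad2 was lower in amygdala than elsewhere (-0.96 ± 0.23, adjusted p = 0.00102). Amygdala of iNP animals 7 and 8, nearest accumbens by profile, read 9.76 and 9.86 for Gad2, above the range of 7.61 to 9.17 in the other 10 amygdala arrays. Without the 5 arrays nearest another region the amygdala difference was -1.43 (adjusted p = 2.49e-11), with adjusted p over all alternatives between 2.49e-11 and 0.00675. Those 5 arrays were picked by their profile in these same data, so leaving them out favours larger region differences. The striatum difference of 0.61 ± 0.23 missed the threshold (limma adjusted p = 0.0619) and passed it without those 5 arrays (0.59, adjusted p = 0.000325). Over 22 alternatives its adjusted p ran from 0.000325 to 0.146. No neighbouring pair in the Gad2 order (accumbens, striatum, hippocampus, cortex, amygdala) was called, although 5 of 10 pairs were, among them amygdala against accumbens (-1.75 ± 0.29, adjusted p = 5.43e-06).

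Over the 5 region means, Gad1 and Gad2 were correlated at r = 0.886, and over the 59 arrays at r = 0.443 (Spearman's rho 0.603). With region and line removed the correlation was -0.108, or 0.122 without accumbens of iP animal 4 and cortex of iP animal 5. These points share arrays and tissue, so the values are descriptions. The shared pattern of the 2 enzymes was seen between regions and not between arrays within groups. Within groups Gad2 also fell with the hexokinase 3′ to 5′ ratio (r = -0.647), whereas Gad1 did not (r = 0.287). The low correlation within groups therefore cannot show whether the 2 enzymes vary together between rats.

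For uptake, the Slc6a11 window at chr4:148853307-148853606 (plus strand, GRCr8) is shown as that of the third gene highest in accumbens, marked as above.
Slc6a11: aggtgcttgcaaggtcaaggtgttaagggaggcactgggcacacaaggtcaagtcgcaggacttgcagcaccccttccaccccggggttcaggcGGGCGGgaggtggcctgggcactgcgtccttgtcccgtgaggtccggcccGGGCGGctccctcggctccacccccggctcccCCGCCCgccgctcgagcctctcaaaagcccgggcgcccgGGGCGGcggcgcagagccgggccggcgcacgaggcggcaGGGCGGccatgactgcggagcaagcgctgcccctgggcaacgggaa
It held 5 GGGCGG matches and no TATAAA, where the median window holds 0 of either. The CG dinucleotide occurred 30 times.

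Slc6a11 signal (S42358_s_at, a set whose suffix marks probes that may match more than 1 transcript) varied least between regions of the 3 genes. Accumbens arrays lay between 8.63 and 10.12 (median 9.54, intensity 743.6). Hippocampus ranged from 8.75 to 9.64 (median 9.13), amygdala from 8.63 to 9.75 (median 9.06), cortex from 8.47 to 9.50 (median 9.20) and striatum from 8.59 to 9.30 (median 9.08). The ranges overlapped in all 5 regions. Accumbens was higher than the other regions by 0.41 ± 0.10 (1.33-fold, limma adjusted p = 0.00198; 0.32 to 0.48 and adjusted p 0.000114 to 0.0129 over 22 alternatives). All 4 pairs that include accumbens were called, from 0.35 against hippocampus (difference hippocampus minus accumbens -0.35, adjusted p = 0.0436) to 0.52 against striatum (-0.52, adjusted p = 0.00277). The other 6 pairs were not. Of 14 astrocyte markers tested, 1 was higher in accumbens (12.3% of all probe sets) and 3 were lower (8.58%). Their median difference was -0.0042 against 0.02 over all probe sets. The part of astrocytes in the Slc6a11 difference was not tested.

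For the receptor, the Gabbr2 window at chr5:66083646-66083945 (minus strand, GRCr8) is shown because its gene was lowest in accumbens.
Gabbr2: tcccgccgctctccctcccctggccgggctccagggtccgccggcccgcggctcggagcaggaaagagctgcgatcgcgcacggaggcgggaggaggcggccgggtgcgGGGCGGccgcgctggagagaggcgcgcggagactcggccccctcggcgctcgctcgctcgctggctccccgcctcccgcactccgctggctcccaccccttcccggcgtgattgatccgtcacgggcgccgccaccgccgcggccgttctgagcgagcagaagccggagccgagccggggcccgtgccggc
It held 1 GGGCGG match, no TATAAA, and 47 CG dinucleotides, more than 98.7% of all windows.

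Gabbr2 signal by its brightest probe set, AF058795_at, separated the accumbens completely. The 12 accumbens arrays lay between 10.93 and 11.59 (median 11.30, intensity 2517). Cortex ranged from 12.04 to 12.86 (median 12.35), amygdala from 11.65 to 12.77 (median 12.27), hippocampus from 11.73 to 12.35 (median 12.01) and striatum from 11.62 to 12.28 (median 11.99). No accumbens array reached the lowest array of any other region, a separation in accumbens that 0.248% of all probe sets showed. The difference was -0.83 ± 0.06 (1.78-fold lower, limma adjusted p = 2.02e-15; -0.92 to -0.80 over 22 alternatives). The same probe set was higher in cortex (0.54 ± 0.06, adjusted p = 3.63e-09) and amygdala (0.29 ± 0.06, adjusted p = 0.000334). In the order cortex, amygdala, hippocampus, striatum, accumbens, amygdala differed from hippocampus (adjusted p = 0.0375) and striatum from accumbens (0.66 ± 0.08, adjusted p = 5.34e-09). Cortex and amygdala did not differ beyond their spread (adjusted p = 0.0532), nor did hippocampus and striatum (adjusted p = 0.872). The amygdala arrays of iNP animals 7 and 8 again stood apart, at 11.70 and 11.65, below the range of 11.99 to 12.77 in the other 10. Without the 5 arrays nearest another region the amygdala difference was 0.37.

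The other 2 Gabbr2 probe sets shared the low accumbens signal but with more spread. AF074482_s_at had medians of 9.53 in accumbens, 9.89 in amygdala, 10.14 in striatum, 10.24 in hippocampus and 10.48 in cortex, with overlapping ranges. Its accumbens difference was -0.64 ± 0.20 (1.56-fold lower, limma adjusted p = 0.0149). Without animal 4, whose accumbens array read 7.51, it was -0.46 (adjusted p = 0.0903), and over 22 alternatives the adjusted p ran from 4.19e-05 to 0.0903. AF109405_s_at differed by -0.43 ± 0.18 (adjusted p = 0.0880), by -0.49 without cortex of iP animal 5 and amygdala of iP animal 1 (adjusted p = 0.00206; 0.00124 to 0.274 over 22 alternatives). In cortex neither passed the test on all arrays, and both passed it without cortex of iP animal 5 and amygdala of iP animal 1 (0.72 and 0.73, adjusted p = 0.000230 and 3.70e-05, against 0.37 and 0.41, adjusted p = 0.247 and 0.135, on all arrays). Over 22 alternatives their adjusted p ran from 1.23e-05 to 0.445 and from 1.63e-06 to 0.278. That cortex array read 6.87 and 7.22 for the pair. In amygdala the probe sets disagreed in sign: 0.29 for AF058795_at against -0.16 for AF074482_s_at and -0.30 for AF109405_s_at. Without the 5 arrays the latter pair passed the test, at -0.42 (limma adjusted p = 0.00604) and -0.60 (adjusted p = 5.61e-05). Over 22 alternatives their differences ran from -0.42 to 0.03 (adjusted p 0.00604 to 0.855) and from -0.60 to -0.14 (5.61e-05 to 0.443). The direction of Gabbr2 in amygdala thus depended on the probe set. Amygdala also had the highest median hexokinase 3′ to 5′ log2 ratio, 1.15, against 0.758 in striatum to 0.935 in accumbens. Within groups AF074482_s_at and AF109405_s_at fell with that ratio (given below). The part of RNA quality in their amygdala differences was not tested.

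**Figure D2:**
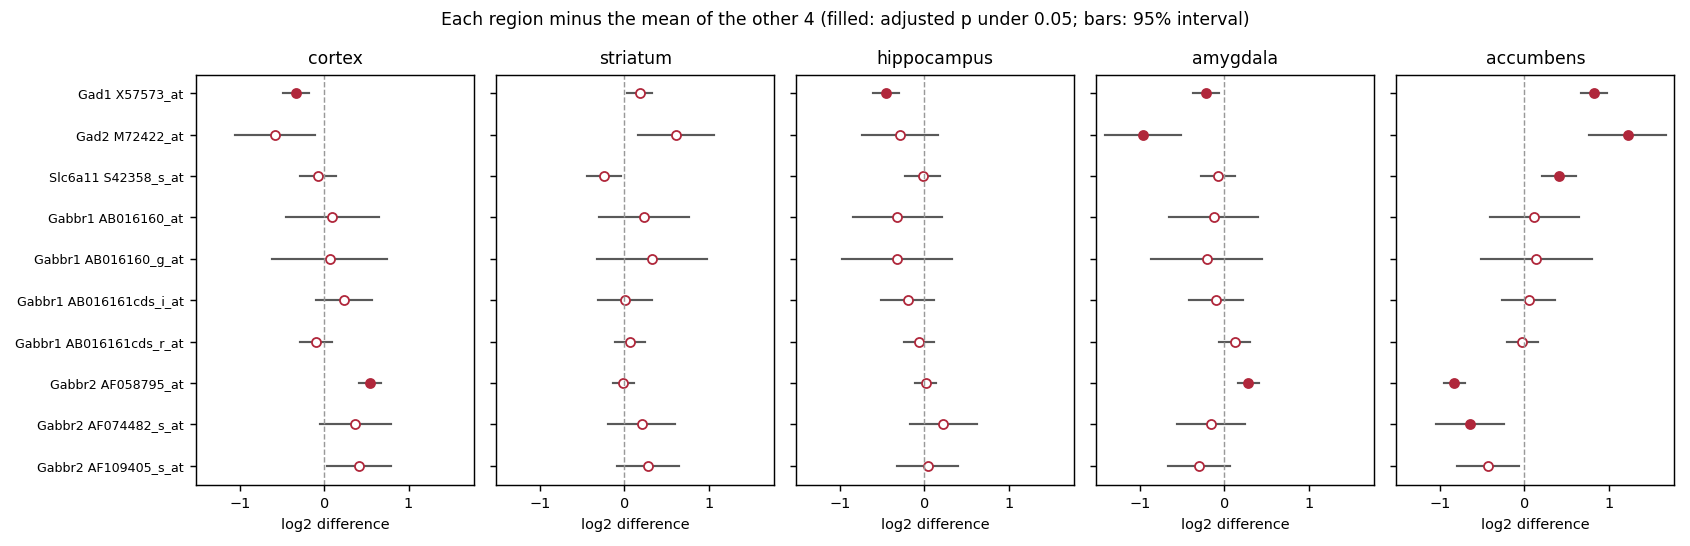
Difference of each region from the mean of the other 4 (log2, horizontal axis) for the 10 probe sets, with 95% intervals; filled points have a limma adjusted p under 0.05. The 5 filled points in accumbens are Gad1, Gad2 and Slc6a11 to the right and 2 Gabbr2 probe sets to the left of 0, and no Gabbr1 point is filled in any region.

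Gabbr1 showed no regional difference in any of its 4 probe sets. The smallest adjusted p over their region tests was 0.348, and 0 of 40 pair tests were called (limma; 0 of 20 region tests and 0 of the pair tests had an unadjusted p under 0.05). AB016160_at had medians of 12.36 in striatum, 12.27 in accumbens, 12.27 in cortex, 12.16 in hippocampus and 11.93 in amygdala. Region accounted for 3.39% of its variance, against 73.9% for Gabbr2 AF058795_at and 71.8% for Gad1. The 95% interval of its accumbens difference ran from -0.41 to 0.65, which leaves room for differences as large as that of Slc6a11. The wide intervals come with a large spread between arrays: its standard deviation within groups, 0.866, was above that of 98.0% of probe sets tested. On 9 arrays AB016160_at read 9.66 to 10.54, and on all others at least 11.02. Of the 9, 5 were hippocampus arrays, 2 of iP and 3 of iNP rats, and each other region had 1, always of an iP rat.

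Probe sets of Gabbr1 fell into 2 pairs by the sequence record they were designed on. AB016160_at and AB016160_g_at moved together over the 59 arrays (r = 0.968, rho 0.958), and AB016161cds_i_at and AB016161cds_r_at less so (r = 0.418, rho 0.367). Between the records r was 0.163 to 0.306. Affymetrix uses the suffixes _i_at and _r_at for sets with too few probes or with design rules relaxed. For Gabbr2, AF074482_s_at and AF109405_s_at moved together (r = 0.884, rho 0.799) but less with AF058795_at (r = 0.171 and 0.0982; -0.205 and -0.264 with region and line removed). Their region means were more alike, at r = 0.818 and 0.652 over 5 regions.

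The probe sets that disagreed also differed in how they moved with RNA quality. With region and line removed, the correlation with the hexokinase 3′ to 5′ ratio over 59 arrays was -0.829 for Gabbr2 AF074482_s_at and -0.750 for AF109405_s_at, but 0.264 for AF058795_at. It was -0.702 and -0.753 for Gabbr1 AB016160_at and AB016160_g_at, and -0.179 and -0.238 for the other Gabbr1 pair. For Gad2 it was -0.647, for Slc6a11 -0.575 and for Gad1 0.287. Over all probe sets tested, the 5th to 95th percentiles were -0.668 to 0.481. Without the 2 arrays of highest ratio the values were -0.738 for AF074482_s_at, -0.621 for Gabbr1 AB016160_at, -0.605 for Gad2 and -0.347 for Slc6a11. The ratio was also added to the fits of line and region, an alternative chosen after seeing the data. With it the accumbens differences were 0.79 for Gad1, 1.36 for Gad2, 0.46 for Slc6a11, -0.84 for AF058795_at and -0.49 for AF074482_s_at, all still past the threshold (adjusted p 1.55e-15 to 0.000391).

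**Figure D3:**
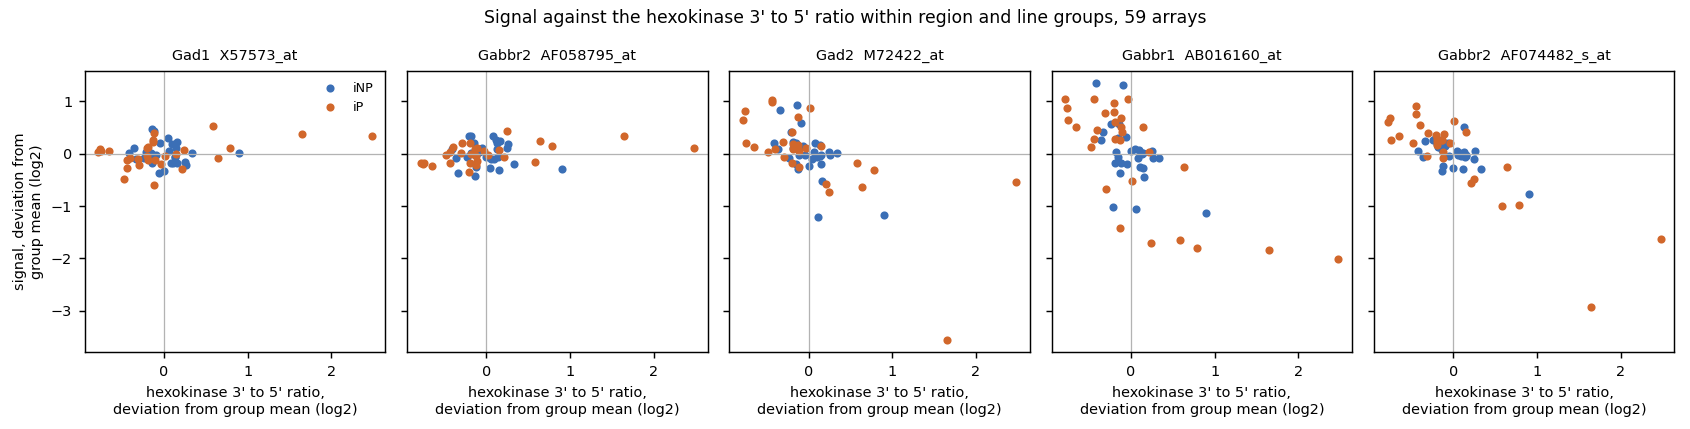
Deviation of signal from its region and line mean (log2, vertical axis) against the deviation of the hexokinase 3′ to 5′ log2 ratio from the same mean (horizontal axis), 1 point per array, 59 arrays, for 5 probe sets. Gad1 and Gabbr2 AF058795_at stay near 0 across the range (r = 0.287 and 0.264), while Gad2, Gabbr1 AB016160_at and Gabbr2 AF074482_s_at fall with the ratio (r = -0.647, -0.702 and -0.829).

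The question of the design was which transcripts differ between the lines. Averaged over the regions of each animal, 0 of the 10 probe sets were called (limma; 2.65% of all probe sets were), with 2 of 10 at an unadjusted p under 0.05. Within regions 0 of 50 tests were called (0.606% over all probe sets), with 3 at an unadjusted p under 0.05. The line by region interaction was called for 0 of 10 (0% over all probe sets), none at an unadjusted p under 0.05, with a smallest adjusted p of 0.956. A p that misses the threshold does not show that the lines are alike, so the intervals are given.

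Gad1 differed between the lines by -0.09 ± 0.07 over all regions (iP minus iNP; 95% interval -0.23 to 0.06; n = 6 and 6 rats), Gad2 by -0.15 ± 0.18 (-0.53 to 0.23) and Slc6a11 by -0.13 ± 0.07 (-0.29 to 0.03). These intervals hold line differences in Gad1 well below its accumbens difference of 0.83. Gabbr2 AF058795_at differed by 0.15 ± 0.07 (-0.0015 to 0.31), AF074482_s_at by -0.28 ± 0.13 (-0.55 to -0.01; limma adjusted p = 0.385) and AF109405_s_at by -0.15 ± 0.10 (-0.37 to 0.06). The sign of the Gabbr2 difference thus depended on the probe set. Gabbr1 AB016160_at differed by -0.43 ± 0.20 (-0.84 to -0.01; adjusted p = 0.403) and AB016160_g_at by -0.36 ± 0.26, whereas AB016161cds_i_at differed by 0.19 ± 0.10 and AB016161cds_r_at by -0.02 ± 0.10. With the hexokinase ratio in the fit, an alternative chosen after seeing the data, the AB016160_at and AF074482_s_at differences were -0.11 and -0.12. Both arrays of highest ratio are from iP rats, so the ratio was not balanced between the lines. The part of RNA quality in these line differences was not tested.

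The smallest adjusted p of any member within a region was that of Gad1 in hippocampus. The 6 iP rats lay between 11.86 and 12.27 (median 12.06, intensity 4276) and the 6 iNP rats between 12.28 and 12.41 (median 12.38, intensity 5315). The lines did not overlap, although the highest iP and the lowest iNP array almost met, and 1.28% of all probe sets had lines that did not overlap in hippocampus. The difference was -0.30 ± 0.08 (1.23-fold lower in iP; 95% interval -0.47 to -0.14; limma adjusted p = 0.139). Over 22 alternatives it lay between -0.35 and -0.26, with adjusted p from 0.0758 to 0.622, and was called in none. Gad2 in the same region had the opposite sign. Its iP arrays ran from 9.18 to 9.72 (median 9.56) and its iNP arrays from 7.68 to 9.44 (median 8.98). The lines overlapped, with a difference of 0.63 ± 0.24 (limma adjusted p = 0.529). Over 22 alternatives the Gad2 difference lay between 0.39 and 0.75, with adjusted p from 0.367 to 0.889. The lowest iNP array was that of animal 10, which had the highest hexokinase 3′ to 5′ log2 ratio in hippocampus (1.94).

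The next smallest adjusted p of any member within a region was that of Slc6a11 in amygdala. The iP arrays lay between 8.63 and 9.23 (median 8.87) and the iNP arrays between 8.97 and 9.75 (median 9.44), so the lines overlapped. The difference was -0.48 ± 0.14 (1.40-fold lower in iP; 95% interval -0.79 to -0.17; limma adjusted p = 0.265; 0.138 to 0.518 over 22 alternatives). In the other 4 regions the Slc6a11 difference was between -0.08 and -0.02. In cortex the line differences of Gad2 (-0.90 ± 0.70) and Gabbr2 AF074482_s_at (-0.75 ± 0.58) rested largely on iP animal 5, and that of Gabbr1 AB016160_at (-0.80 ± 0.44) in part. The 5 iP cortex arrays read 9.10, 9.44, 9.32, 9.48 and 4.89 for Gad2, the last being that animal. Without that array and amygdala of iP animal 1 the differences were -0.01, -0.02 and -0.34. For Gabbr1 AB016160_at, iP animals 3 and 4 read 11.02 and 11.82 in cortex, also below the lowest iNP array (12.06).

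**Figure D4:**
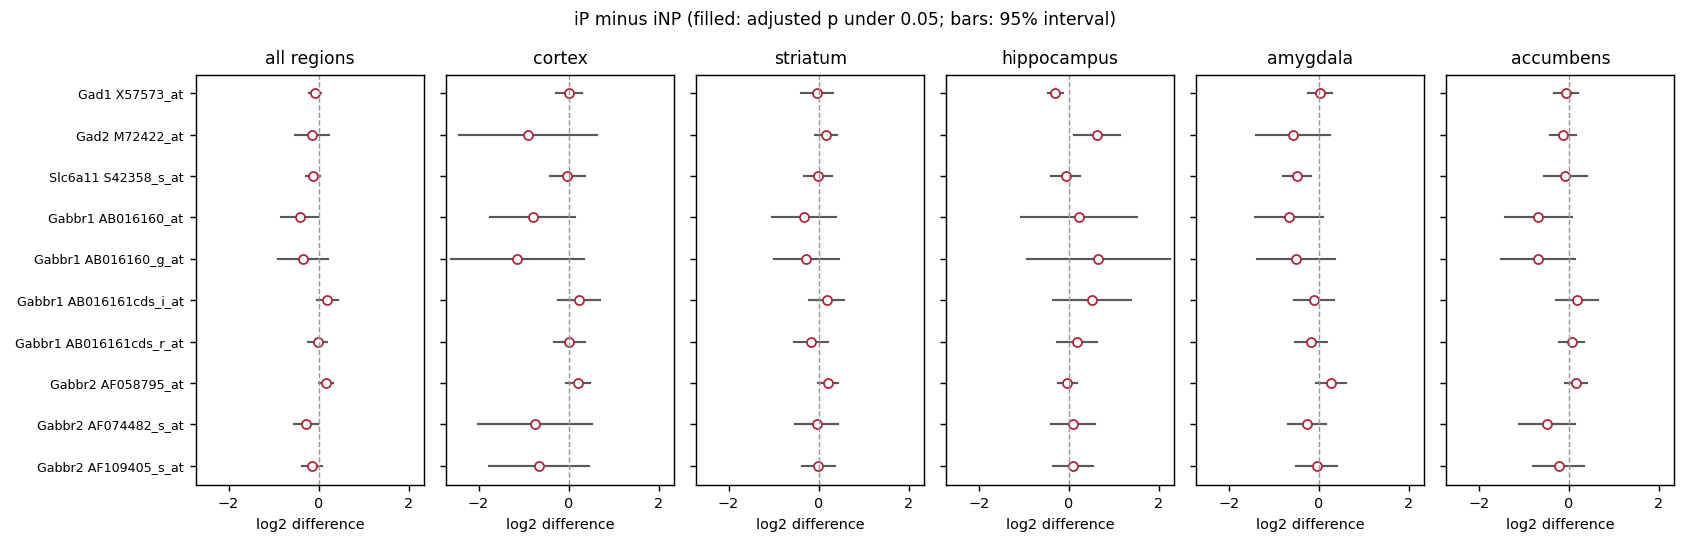
Line difference (iP minus iNP, log2, horizontal axis) of the 10 probe sets over all regions and in each region, with 95% intervals; no point is filled, since none had a limma adjusted p under 0.05. The interval of Gad1 in hippocampus (-0.47 to -0.14) lies left of 0, and the widest interval is that of Gabbr1 AB016160_g_at in hippocampus (-0.93 to 2.24), followed by Gad2 in cortex (-2.44 to 0.63).

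Other genes of GABA handling were set beside the members. Of 15 listed genes, 10 were tested and 0 were called between the lines (2.65% of all probe sets were). In accumbens 4 of 10 were higher (12.3% of all) and 0 lower (8.58%), with a median difference of 0.20 against 0.02 over all probe sets. The 4 are Slc6a13, which encodes the transporter GAT-2 (0.91 ± 0.15, limma adjusted p = 3.38e-06), Slc32a1, the vesicular GABA transporter (0.83 ± 0.06, adjusted p = 2.09e-15), Aldh5a1, which degrades the product of GABA transamination (0.40 ± 0.11, adjusted p = 0.00485), and Gphn, the scaffold of inhibitory synapses (0.27 ± 0.05, adjusted p = 0.000172); the last 3 were named for accumbens after their values were seen. Slc32a1 thus rose by as much as Gad1 there, and it was also the largest rise of the list in striatum (0.27). Slc6a13 was the most variable by region, at 1.09 in amygdala, -0.78 in striatum and -1.15 in hippocampus. In cortex the largest fall of the list was Dbi, which encodes the diazepam binding inhibitor (-0.40). The largest rise in hippocampus was Slc1a1, a neuronal glutamate transporter (0.53), and the largest fall in amygdala was Aldh5a1 (-0.41).

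Of 27 listed effectors and regulators of GABA-B signalling, 16 were tested and 0 were called between the lines (2.65% of all probe sets were). In accumbens 4 were higher and 5 lower, where 20.9% of all probe sets were called, with a median of -0.06 against 0.02 over all. In striatum 6 were higher and 1 lower, where 13.9% of all were called, with a median of 0.24 against -0.0082. Adcy5, the adenylyl cyclase typical of medium spiny neurons, was 0.99 ± 0.06 higher in striatum and 0.66 ± 0.06 higher in accumbens, and lower in cortex (-0.55). Gnb1, a G protein beta subunit, was the largest fall in accumbens (-0.50, adjusted p = 0.00849). It lost that call without animal 12 (-0.28, adjusted p = 0.0569). In amygdala the largest rise was Gnb1 (0.40), lost in several alternatives, and the largest fall Gng7, a G protein gamma subunit (-0.57). Rgs4, which speeds the switching off of Gi/o proteins, was 1.19 higher in cortex and lower in hippocampus (-1.22). Gnaz, a Gi-family alpha subunit, was lower in striatum (-0.22, adjusted p = 0.0417) and lost that call in several alternatives.

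Markers of the cell types that carry these genes gave the following levels beside them. Summed intensity of the 13 medium spiny neuron markers ran from 41190 to 53333 in accumbens and from 40320 to 70046 in striatum, above the 16299 to 19052 of cortex and the 13762 to 16624 of hippocampus. In amygdala it ran from 17358 to 32310. Summed interneuron markers (12 tested) ran from 23116 to 35542 in accumbens and from 38152 to 55021 in cortex. Called higher in accumbens were 5 of them (12.3% of all probe sets) and called lower 5 (8.58%). Pan-neuronal markers (9 tested) had a median sum of 67586 in accumbens and between 77339 and 86699 in the other regions. Excitatory neuron markers (5 tested) ran from 10253 to 15907 in accumbens (median 11512), below every array of the other regions, whose medians lay between 24328 and 31944. Striatum, at a median of 27742, was above hippocampus (26223) and amygdala (24328). Called higher in striatum were 2 of the 5 (6.27% of all probe sets) and called lower 1 (7.65%). The sum is thus no plain measure of how many excitatory neurons a region holds. Of the 5, 4 were lower in accumbens (8.58% of all probe sets) and 0 higher (12.3%). Their median difference was -0.39 against 0.02 over all probe sets. Nrgn, the gene most like Gabbr2 AF058795_at, was among the 4. That likeness was measured over these same arrays, so the low Nrgn signal in accumbens is no independent support. The low accumbens signal of Gabbr2 stood beside a low level of these markers. The part of these cell types in the differences of Gad1, Gad2, Slc6a11 and Gabbr2 was not tested. Of all the marker lists, 4 genes were called between the lines, where 2.65% of all probe sets were called. Of 12 interneuron markers tested, 1 was called, the peptide gene Npy (-0.24). Of 8 microglia markers tested, P2ry12 was lower (-0.77) and Lyz2 higher (0.54). Of 6 endothelial and choroid plexus markers tested, 1 was called, the endothelial gene Pecam1 (-0.47). No marker of the other lists was called. The Npy call was lost with arrays set to the same median and without animal 12.

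The genes most like each member over the 59 arrays were found by Pearson's r with its brightest probe set. For Gad1 they were Pcp4l1 (r = 0.867), Chn2 (0.839) and Dlx5 (0.792), and with region and line removed 0.419, 0.645 and 0.383. For Gad2 they were Acadsb (0.878), Syt6 (0.873) and Zeb1 (0.865), with 0.898, 0.777 and 0.826 after removal. Those for Gabbr1 AB016160_at were Rab14 (0.942), Rbfox2 (0.910) and Tnrc6b (0.889), with 0.943, 0.906 and 0.889 after removal. Likeness to Gad2 and Gabbr1 AB016160_at thus stayed at 0.777 or more between arrays of the same group, while likeness to Gad1 shrank. Gabbr2 AF058795_at was most like Nrgn (0.856), Sv2b (0.826) and Nrn1 (0.808), with 0.564, 0.486 and 0.363 after removal. Slc6a11 had no close match, with Ghrh at 0.597, Jag2 at 0.562 and Nsg1 at 0.538. All these points share arrays and array quality.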

How the data were processed

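Total RNA of 5 brain regions of 12 rats was measured on 59 Affymetrix arrays, 1 rat and region each, labelled with biotin per the labels' protocols. The authors deposited linear intensity, 1 value per probe set and array, with the software not given in the sources used here. Every array had a 2% trimmed mean of 1000, so no scaling was added. Line and region came from the genotype label and titles; the source name gives iNP for every array and was not used. Values under 16 were set to 16 and log2 transformed, 59 control probe sets and the dimmest 40% by mean were left out, and 5244 were tested in limma 3.58.1 (R 4.3.3) with an intensity trend, two-sided, at a Benjamini-Hochberg adjusted p under 0.05. Line was tested within each region and on animal means over regions; regions and the interaction were fitted with the animal as a block. The pairing follows from animal numbers in the titles; deviations of the same animal correlated at a mean of 0.0574, and of different animals at -0.00369. The fits were tested on simulated data. Alternatives were the floor, the filter, the scaling, the variance trend, the block, arrays that stand apart, each animal left out, and the hexokinase ratio as a covariate. The members and lists were chosen with earlier results of these data known. Named genes are all member probe sets, list genes called between the lines, the largest called rise and fall per region of the GABA and GABA-B lists, and the 3 genes most like each member. Promoter windows are from RefSeq (GRCr8), matched by symbol for 5 of 5 genes. The number of animals limits the precision.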

Additional observations from a re-analysis of the deposited data

Results flagged for a closer look

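In 14 of 100 groups of values (10 probe sets in 10 region and line groups) 1 array stood far from the others of its group by Dixon's test; chance gives about 1 in 20 groups. They fell on 8 arrays. Accumbens of iP animal 4 was low for Gad2 (9.78), Gabbr1 AB016160_at (9.66) and AB016160_g_at (8.58), and Gabbr2 AF074482_s_at (7.51) and AF109405_s_at (8.05). Cortex of iP animal 5 was low for Gad2 (4.89) and for Gabbr2 AF074482_s_at (6.87) and AF109405_s_at (7.22). Gabbr2 AF074482_s_at was also low in striatum of iP animal 2 (9.04), hippocampus of iP animal 2 (9.16) and hippocampus of iNP animal 10 (9.27). Gabbr1 AB016160_at was low in accumbens of iNP animal 10 (12.18), AB016161cds_i_at was low in hippocampus of iNP animal 7 (6.24), and AB016161cds_r_at was high in accumbens of iNP animal 7 (9.53). No array stood far from its group for Gad1, Slc6a11 or Gabbr2 AF058795_at.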

How the results depend on the processing

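Counts of member calls between the lines, over all regions, within regions and in the interaction, were 0 under every alternative run. The 11 calls of regions against the other 4 became 17 without cortex of iP animal 5 and amygdala of iP animal 1, 19 without the 5 arrays nearest another region, and 17 with the hexokinase ratio as a covariate, an alternative chosen after seeing the data. The 27 calls of pairs of regions became 43 without the 5 arrays. Those 5 were picked by their profile in these same data, so the added calls without them are no independent support for regional differences. With each replicate left out in turn the counts ran from 10 to 17 for regions and from 20 to 31 for pairs; animal 5 gave the 17. No called difference changed sign.

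Without the replicate block, 11 region calls and 25 pair calls were made, and the interaction had 0; with the animal as a random block in 1 fit of all arrays, the line counts were 0. The block changed no other member count by over 1.5 times. Single results kept their side of the threshold in 4873 comparisons with alternatives other than the hexokinase covariate, gained a call in 74 and lost one in 86; with that covariate the counts were 227, 11 and 3. The cause was not tested. Arrays give no depth: probe sets with a large spread between arrays (Gabbr1 AB016160_g_at, 95% interval of its line difference -0.91 to 0.19) limit what could be seen.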
